A study of Mus musculus with 6 samples.

Results

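The lysosome genes described here are 41 genes listed by their known role, all of them present in the deposited table of 11881 genes and all 41 abundant enough to be tested. They comprise 17 hydrolases, 3 lumenal cofactors, 9 membrane proteins, 9 genes of the proton pump and 3 transcription factors, with cathepsins left out. The expression data come from microglia that were purified by flow cytometry on CD11b and low CD45 out of mouse hippocampus. The animals were males of postnatal days 17 to 21, and 3 carried the genotype label WT and 3 the label Mll5+/-, meaning 1 disrupted copy of Mll5 (now Kmt2e). No further allele, transgene or treatment is given for either group, and neither the strain, the disrupted part of Mll5 nor the use of littermates is given in the sources used here. The study's question, by its title, concerns microglial phagocytosis, for which the lysosome is the end point.

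Lysosomes are acidic organelles in which hydrolases break down proteins, glycans, lipids and nucleic acids that reach them by endocytosis, phagocytosis or autophagy. A vacuolar ATPase (V-ATPase) in the limiting membrane pumps protons inward and keeps the lumen at the acidity the enzymes need. Microglia, the phagocytes of the brain parenchyma, degrade apoptotic cells, synaptic material and myelin debris by this route, and inherited loss of many of these genes causes storage diseases with neurodegeneration. The transcription factors TFEB, TFE3 and MITF bind E-box motifs, whose core is CACGTG, near many lysosome genes, and raise their expression when they enter the nucleus.

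The core motif was looked for in the promoter windows of RefSeq on the mouse build GRCm38, which run from 250 bases before to 50 bases after a start site. Of the 41 genes, 37 had a window, and Asah1, Npc1, Atp6v1b2 and Atp6v1h had none. CACGTG, which reads the same on both strands, was in a window of 12 of the 37 genes (32.4%), against 11.9% of the 8670 tested genes with a window and 8.09% of all 27025 genes in that table. The longer TCACGTGA, which contains CACGTG and also reads the same on both strands, was in 5 of the 37 (13.5%), against 2.36% and 1.12%. By role, CACGTG was found in 6 of 16 hydrolases, 3 of 8 membrane proteins and 3 of 7 pump genes, and in none of the 3 cofactors or the 3 transcription factors. The stretches below show the motif in 5 promoters, written from 5′ to 3′ on the strand of the gene, with CACGTG or TCACGTGA in capitals. Gla, Cln3, Mcoln1 and Atp6v1a hold the longer motif upstream of the start, and Lamp1 is shown because it held 4 copies of the core, more than any other of the 37.
Gla (chrX:134601163-134601255, minus strand): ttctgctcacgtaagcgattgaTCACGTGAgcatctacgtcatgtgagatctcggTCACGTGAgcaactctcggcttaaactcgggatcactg
Cln3 (chr7:126583321-126583388, minus strand): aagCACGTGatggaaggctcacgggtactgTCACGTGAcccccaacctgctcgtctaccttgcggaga
Mcoln1 (chr8:3500443-3500510, plus strand): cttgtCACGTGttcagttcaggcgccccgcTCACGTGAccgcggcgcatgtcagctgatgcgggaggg
Atp6v1a (chr16:44139354-44139421, minus strand): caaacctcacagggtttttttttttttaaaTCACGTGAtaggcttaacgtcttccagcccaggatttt
Lamp1 (chr8:13159070-13159160, plus strand): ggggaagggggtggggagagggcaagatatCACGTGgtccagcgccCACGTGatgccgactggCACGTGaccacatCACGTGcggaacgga

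In Lamp1 the 4 copies began 61, 45, 28 and 15 bases before the start site, and in Gla the 2 long motifs began 228 and 195 bases before it. Atp6v0d1 held the long motif too, beginning 4 bases before its start. Such a match describes the letters of these windows and shows no binding. Among 65 further lysosome genes listed for comparison, 48 had a window and 13 of these (27.1%) held CACGTG.

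**Figure D1:**
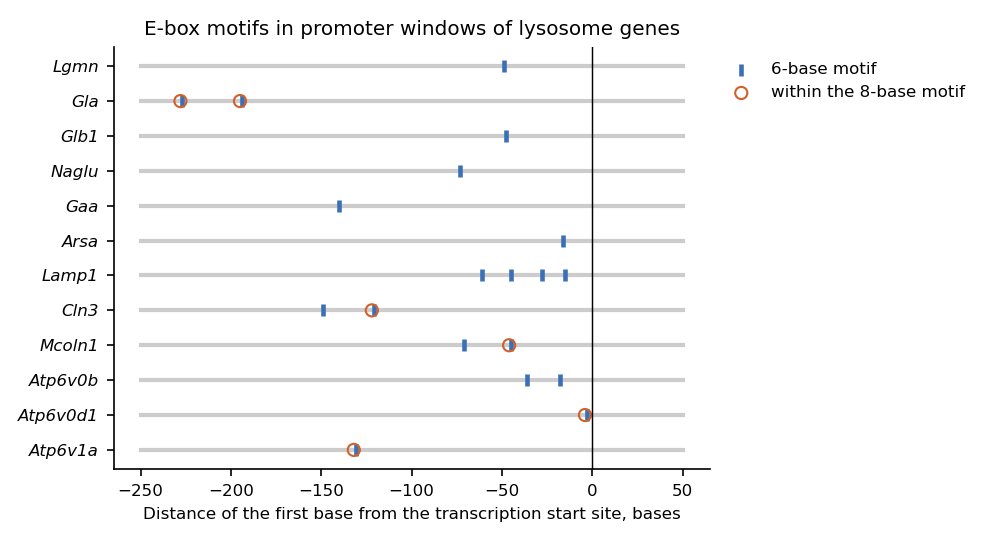
Positions of the E-box motifs in the promoter windows of the 12 lysosome genes that hold one. The horizontal axis is the distance in bases from the transcription start site, grey lines are the windows from 250 bases before to 50 after it, blue ticks are the 6-base core and orange rings the 8-base motif; Lamp1 has 4 ticks, and rings appear for 5 genes.

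The 6 libraries held between 21075570 and 29730400 counts, and each stands for 1 mouse, since the labels number the animals separately. Levels are given as count-per-million (CPM) values after scaling of library sizes, with the libraries of each genotype in the order of replicates 1, 2 and 3. Tests are edgeR's quasi-likelihood test of the labelled Mll5+/- against the labelled WT libraries, fitted over 10832 genes. Kmt2e itself had 479.5, 378 and 688 CPM under the WT label and 648, 298 and 513 CPM under the Mll5+/- label. Its 95% interval, from -0.79 to 0.63 on the log2 scale, does not reach a halving. The disrupted part is not given and a disrupted copy may still be transcribed, so these whole-gene counts cannot test the genotype. The span of Kmt2e also overlaps that of Srpk2, whose reads may not be told apart from it. Genotypes are therefore named as labelled. The microglial genes Tmem119, Cx3cr1 and Csf1r were abundant in all 6, at 197 CPM or more. The 8 microglial markers, all tested, nevertheless summed to between 8226 and 12272 CPM under the WT label and between 6625 and 7624 CPM under the Mll5+/- label. P2ry12, the purinergic receptor of homeostatic microglia, made most of that gap, with 4269, 1366 and 5499 CPM against 1115, 1232 and 1087 CPM (unadjusted p = 0.0103, adjusted p = 0.9995 in edgeR). Of the 8 markers, 3 had positive and 5 negative log2 fold changes, with a median of -0.09. Tmem119 went the other way from the sum, with 197, 221 and 204 CPM against 223, 232 and 222 CPM. Markers of border-associated macrophages (5 of 8 tested, led by Stab1 and Mrc1) summed to between 263 and 328 CPM under the WT label. Under the Mll5+/- label they summed to between 368 and 687 CPM. All 5 log2 fold changes were positive, but Stab1 and Mrc1 each overlapped between the labels. Stab1 had 218, 245 and 139 CPM against 331, 162 and 489 CPM. Mrc1 had 93.3, 81.4 and 109 CPM against 80.5, 179 and 190 CPM. Pf4 and Cbr2 had no row of that name in the deposited table, and Cd163 was under the filter on low counts. Oligodendrocyte markers (5 of 7 tested, led by Cnp and Mag) summed to between 140.3 and 185 CPM against between 98.2 and 134 CPM. Here 1 log2 fold change was positive and 4 were negative, and Cnp and Mag each overlapped between the labels. The remaining lists overlapped between the labels in their sums. Of 5 endothelial markers 1 was tested, Pecam1, with 11.6, 5.85 and 4.37 CPM against 19.4, 5.76 and 14.2 CPM. Astrocyte markers (7 of 9 tested, led by Slc1a3 and Slc1a2) summed to between 385 and 567 CPM against between 268 and 553 CPM, most of it from Slc1a3. In the same list, Gja1, the gap junction protein connexin 43, had 22.7, 23.2 and 28.6 CPM under the WT label and 3.51, 6.71 and 1.75 CPM under the Mll5+/- label (log2 fold change -2.64, unadjusted p = 0.0025 and adjusted p = 0.9995 in edgeR). Plpp3, a lipid phosphatase, had 15.5, 11.5 and 23.0 CPM against 3.39, 4.39 and 5.62 CPM (-1.90, unadjusted p = 0.0131 and adjusted p = 0.9995 in edgeR). The libraries of the labels do not overlap for either gene, and both were named after their values were seen. Neuron markers (3 of 9, led by Prox1 and Snap25) summed to between 33.1 and 64.3 CPM against between 35.4 and 57.3 CPM. Monocyte and neutrophil markers (4 of 8, led by Csf3r and Ccr2) summed to between 196 and 255.5 CPM against between 222.5 and 278 CPM. The part of these cells in any lysosome level was not tested, and in such bulk libraries fewer cells of a type and less RNA per cell cannot be told apart.

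No lysosome gene passed the test between the genotype labels, and the libraries overlapped for 38 of the 41 genes. Summed over the 41 genes they made 8899, 8131 and 8309 CPM under the WT label and 8316, 8300.0 and 8003 CPM under the Mll5+/- label, ranges that overlap. Of the 41 genes, 15 had a positive and 26 a negative log2 fold change, with a median of -0.08 against 0.02 over all tested genes. That median was -0.0047 without WT replicate 1 and -0.15 without Mll5+/- replicate 1, its extremes when each library was left out in turn. In edgeR's test 0 of the 41 passed an adjusted p of 0.05, as 0 of all tested genes did (0%), with a smallest adjusted p of 0.9995 among the 41, and 0 of the 41 had an unadjusted p under 0.05, against 2.88% of all tested genes. DESeq2 on the same genes also gave 0 of the 41 under either threshold, while it called 18 of all tested genes, and limma-voom gave 0 adjusted and 1 unadjusted, Mitf. Of all tested genes, 3.88% in DESeq2 and 4.31% in limma-voom had an unadjusted p under 0.05.

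**Figure D2:**
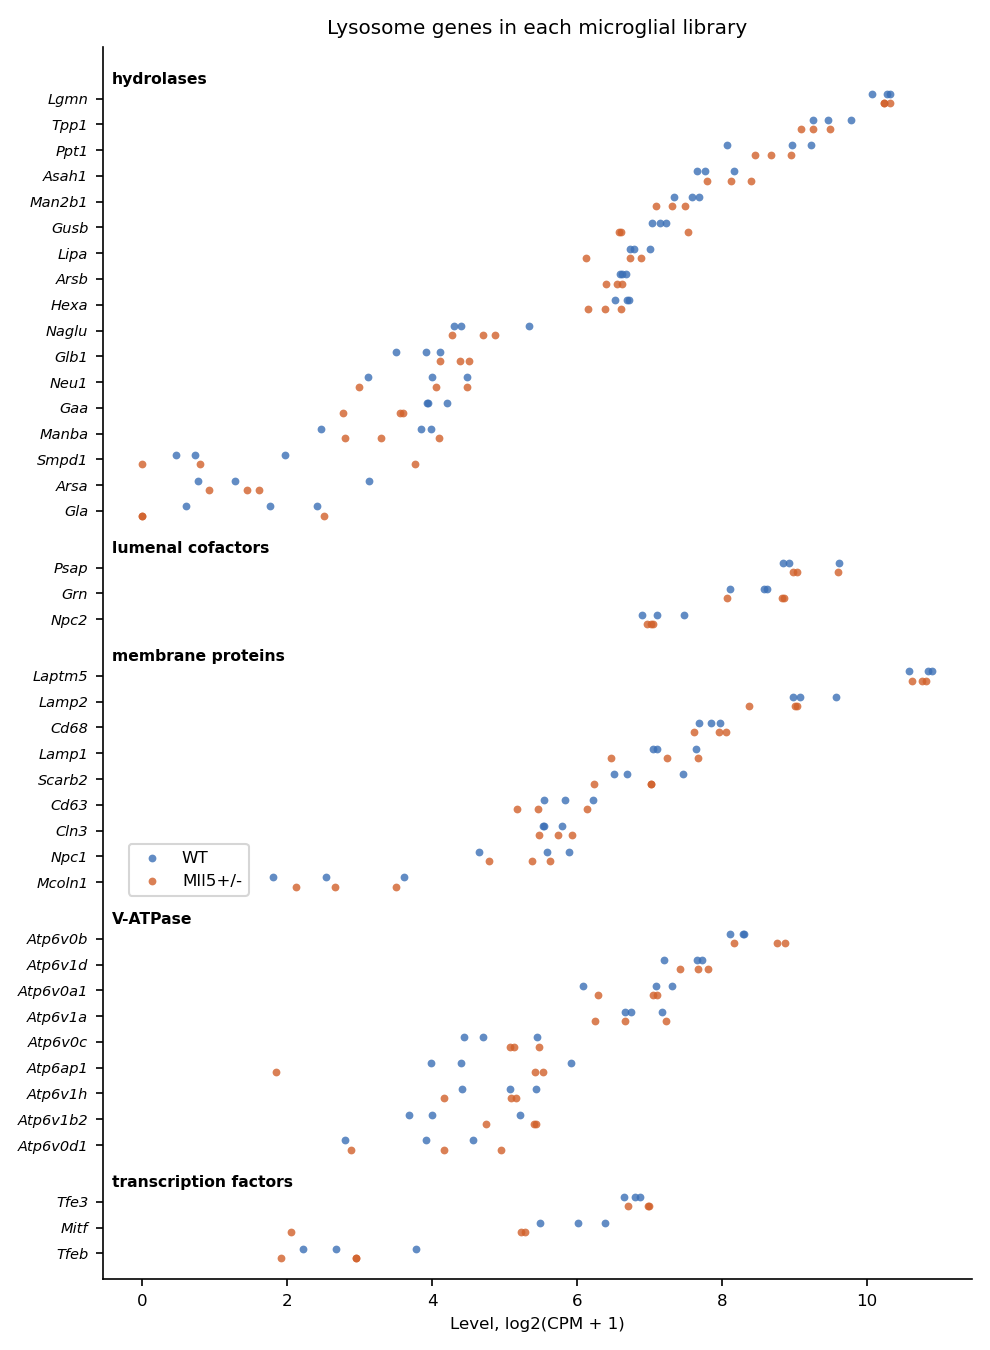
Levels of the 41 lysosome genes, as log2(CPM + 1) on the horizontal axis, grouped by role and ordered by mean level. Each point is 1 library, blue for the label WT and orange for Mll5+/-; the colours interleave for 38 of the 41 genes, while Glb1 lies higher and Gaa and Mitf lower in the libraries labelled Mll5+/-.

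The size of the difference was bounded more closely for the abundant genes than for the scarce ones, with each interval taken for 1 gene at a time. For 23 of the 41 genes (56.1%) the 95% interval of the log2 fold change lay within 1 unit of 0, which leaves out a doubling or a halving, against 19.5% of all tested genes. Those 23 were all among the 24 genes with a mean of at least 50 CPM, a level chosen after seeing the data, at which 64.1% of all tested genes had such an interval. Among the 24, log2 fold changes ran from -0.40 (Lamp2) to 0.39 (Atp6v0b). The 23 intervals reached down to -0.95 (Lamp2) and up to 0.89 (Atp6v0b). Cd63 was the gene whose interval reached further, from -1.07 to 0.58. None of the 17 genes under 50 CPM had an interval within 1 unit of 0. The libraries of the labels did not overlap for 3 of the 41 genes (7.32%), against 9.32% of all tested genes. Glb1 was the 1 gene higher in all libraries labelled Mll5+/- (4.68% of all tested genes were), and Gaa and Mitf were the 2 genes lower in all of them (4.64% of all tested genes).

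**Figure D3:**
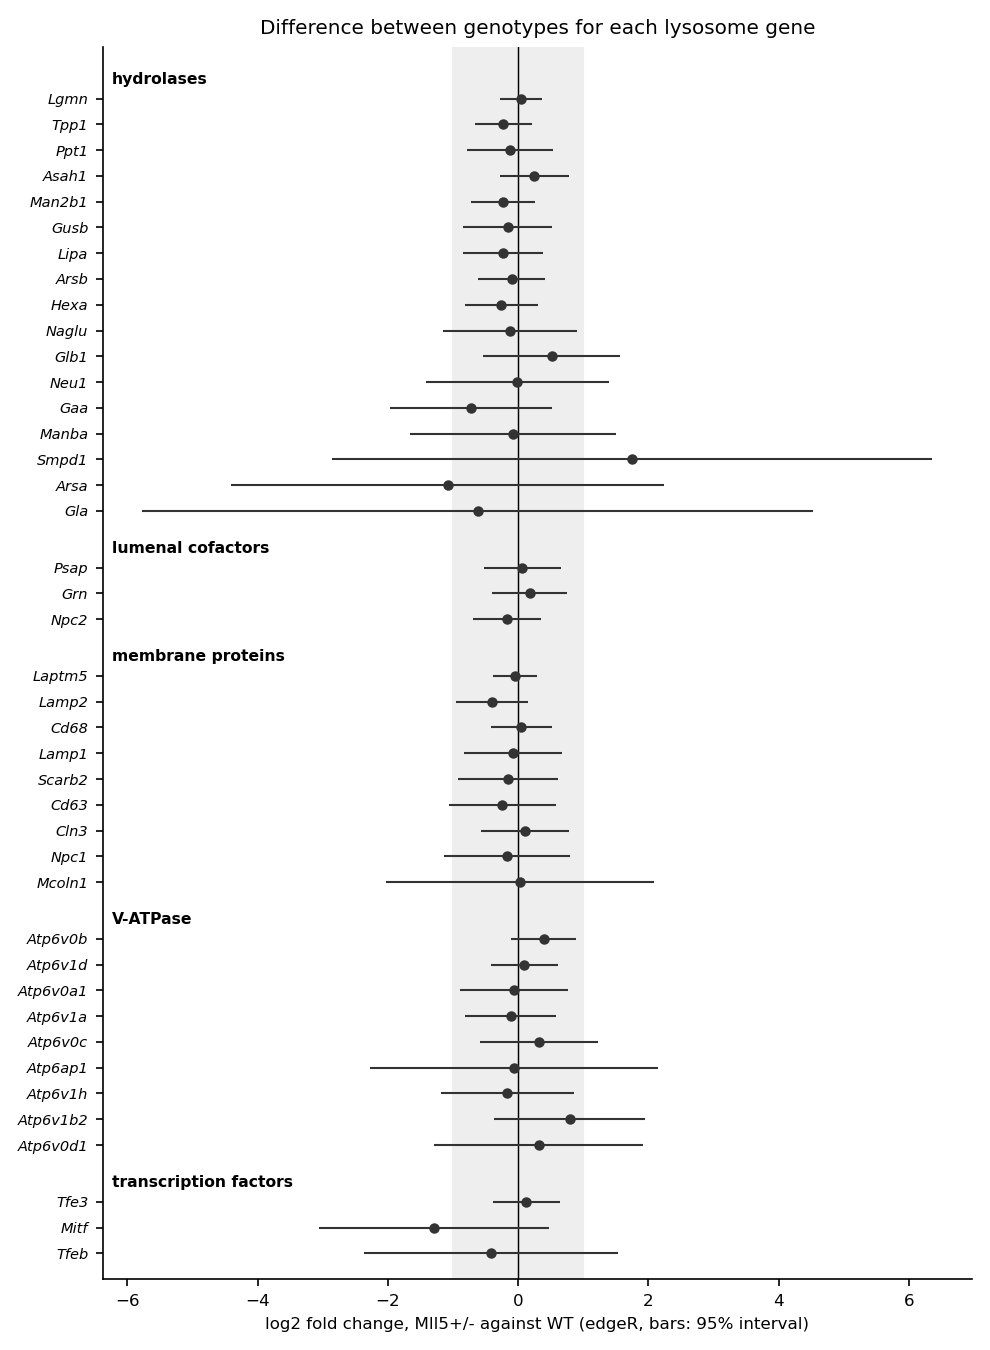
Log2 fold change of each lysosome gene (labelled Mll5+/- against labelled WT, edgeR), with its 95% interval as a bar; the grey band spans -1 to 1. All 41 intervals include 0, and 23 lie inside the band, while those of Gla, Smpd1 and Arsa are the widest.

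Among the hydrolases, 4 of 17 had positive and 13 negative log2 fold changes, with a median of -0.13 that was -0.26 without WT replicate 3 and -0.045 without WT replicate 2. The most abundant was Lgmn (legumain, an endopeptidase that cuts after asparagine and activates cathepsins), on chromosome 12 from 102360343 to 102406072 (mm39, as for all gene positions below). It had 1271, 1069 and 1232 CPM under the WT label and 1205, 1276 and 1198 CPM under the Mll5+/- label, 1191 ± 107 against 1226 ± 43.1 CPM (SD, n = 3 each). The groups overlap, and the log2 fold change of 0.04 (SE 0.142) has an interval from -0.28 to 0.36. Tpp1, a tripeptidyl peptidase, had 879.5, 612 and 703 CPM (labelled WT) and 609, 544 and 717 CPM (labelled Mll5+/-), with a log2 fold change of -0.23 (SE 0.193). Ppt1, the thioesterase that strips palmitate from proteins, had 500.4, 598 and 268 CPM and 493, 406 and 351 CPM in the same order. For both enzymes, whose loss causes neuronal ceroid lipofuscinosis, the ranges overlap. The span of Ppt1 on chromosome 4 also overlaps that of Cap1, whose reads may not be told apart from it.

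Enzymes of sphingolipid and glycolipid breakdown ranged from abundant to nearly absent. Asah1, acid ceramidase, had 199, 217 and 285 CPM under the WT label and 277, 337 and 219.6 CPM under the Mll5+/- label (log2 fold change 0.25, SE 0.234; 0.073 without Mll5+/- replicate 2 and 0.41 without WT replicate 3). Hexa, the alpha subunit of beta-hexosaminidase that clears ganglioside GM2, had 102, 104 and 90.7 CPM against 96.6, 82.2 and 69.7 CPM (-0.26, SE 0.247). Its lowest library labelled WT lay below the highest labelled Mll5+/-, so the ranges touch in a narrow band. Glb1, beta-galactosidase, had 16.2, 10.3 and 14.1 CPM against 21.8, 19.8 and 16.3 CPM, a log2 fold change of 0.51 (SE 0.464, unadjusted p = 0.299 in edgeR). Its groups did not overlap, but by a gap of 0.08 CPM, and without the filter on low counts they did. Glb1 also shares its span on chromosome 9 with Tmppe.

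The scarcest hydrolases were dominated by single libraries. Smpd1, acid sphingomyelinase, had 70, 17 and 11 counts under the WT label and 319, 21 and 0 counts under the Mll5+/- label. Gla, alpha-galactosidase A, had 103, 62 and 15 counts against 0, 133 and 0, where a count of 0 allows up to 0.118 CPM in replicate 1 and 0.142 CPM in replicate 3 (3 counts; counting error only). Arsa, the sulfatase that acts on sulfatide, had 34, 202 and 20 counts against 52, 49 and 19. In each of the 3 genes a single library held most counts of a genotype, and the SEs of the log2 fold changes were 2.03, 2.27 and 1.46. The direction of Smpd1 turned when Mll5+/- replicate 1 was left out, with a log2 fold change of -1.825 in place of 1.75.

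Enzymes of glycan and glycogen breakdown held the clearest separation of the class, in Gaa. Gaa, acid alpha-glucosidase, which frees glucose from lysosomal glycogen, lies on chromosome 11 from 119158713 to 119176280. It had 14.3, 14.2 and 17.4 CPM under the WT label and 11.1, 10.7 and 5.81 CPM under the Mll5+/- label, 15.3 ± 1.81 against 9.21 ± 2.95 CPM (SD, n = 3 each). All 3 libraries labelled Mll5+/- are lower, and the log2 fold change of -0.73 (SE 0.547) has an interval from -1.97 to 0.51 (unadjusted p = 0.2155 in edgeR). Without Mll5+/- replicate 3 it was -0.50. Man2b1, the lysosomal alpha-mannosidase, had 161, 203 and 191 CPM against 135, 179 and 157 CPM (-0.24, SE 0.215), with overlapping ranges. Gusb, beta-glucuronidase, had 149, 140.3 and 130.0 CPM against 96.2, 94.4 and 184 CPM, so that replicates 1 and 2 labelled Mll5+/- lay below every library labelled WT and replicate 3 above all of them. Without that replicate its unadjusted p in edgeR was 0.0439. Arsb, which acts on dermatan sulfate, was among the steadiest genes, with 96.8, 95.4 and 101 CPM against 97.6, 92.3 and 83.3 CPM. Lipa, the acid lipase that hydrolyses cholesteryl esters, had 114 ± 11.7 against 96.7 ± 24.9 CPM (SD, n = 3 each). Naglu, Neu1 and Manba, which act on heparan sulfate, sialic acid and mannose residues, stayed between 4.545 and 39.45 CPM in all libraries and had SEs from 0.454 to 0.697.

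The lumenal cofactors are not hydrolases but help them work. Psap, whose product is cut into the saposins that present lipids to enzymes, had 456, 485 and 781 CPM under the WT label and 522, 773 and 505 CPM under the Mll5+/- label. Within each label 1 library stood well above the other two, replicate 3 and replicate 2. Grn, progranulin, a secreted and lysosomal glycoprotein linked to frontotemporal dementia, had 392, 274 and 381 CPM against 266, 460.5 and 454 CPM (log2 fold change 0.17, SE 0.256; 0.012 without WT replicate 2 and 0.38 without Mll5+/- replicate 1). Npc2, which hands cholesterol to NPC1, had 118, 137 and 177 CPM against 131, 124 and 128 CPM. All 3 cofactors overlapped between the labels, and all 3 intervals lay within 1 log2 unit of 0.

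For the membrane proteins 3 of 9 log2 fold changes were positive and 6 negative, with a median of -0.08 that turned to 0.030 without Mll5+/- replicate 3 and was -0.18 without WT replicate 1. Laptm5, a membrane protein of haematopoietic cells, was the most abundant of the 41 genes, with 1912, 1828 and 1525 CPM under the WT label and 1734, 1566 and 1794 CPM under the Mll5+/- label. Its log2 fold change of -0.05 (SE 0.146) was among the most precise. Cd68, a glycosylated protein of macrophage endosomes and lysosomes that is often used as a marker of phagocytic activity, had 228, 204 and 250.5 CPM against 266, 246 and 195 CPM. That is 228 ± 23.5 against 236 ± 36.7 CPM (SD, n = 3 each), with a log2 fold change of 0.05 and an interval from -0.41 to 0.51. The groups overlap over most of their range.

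Lamp2, which lines the lysosomal membrane and serves chaperone-mediated autophagy, had the largest difference of the class. It had 759.6, 540.1 and 504 CPM under the WT label and 520.3, 514.5 and 331 CPM under the Mll5+/- label (chromosome X, from 37490234 to 37545331). WT replicate 1 is the highest and Mll5+/- replicate 3 the lowest, and the 4 other libraries lie together. The log2 fold change was -0.40 (SE 0.24, unadjusted p = 0.13 in edgeR), and it was -0.21 without WT replicate 1 and -0.23 without Mll5+/- replicate 3. Its relative Lamp1 had 136, 131 and 199 CPM against 149.8, 203 and 87.8 CPM, with no common direction (-0.08, SE 0.331), and its span overlaps that of Grtp1.

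The remaining membrane proteins carry cargo and ions, and all overlapped between the labels. Scarb2, the receptor that brings glucocerebrosidase to the lysosome, had 102, 90.3 and 176 CPM against 128, 128 and 73.9 CPM. Cd63, a tetraspanin of late endosomes, had 58.2 ± 14.1 against 49.1 ± 17.9 CPM (SD, n = 3 each). Cd63 has a processed copy in the GENCODE annotation, whose reads may be shared. Npc1, the cholesterol exporter, had 24.1, 58.3 and 47.1 CPM against 40.3, 48.5 and 26.4 CPM, and Cln3 had 48.4 ± 5.32 against 52.0 ± 8.33 CPM. Both share their spans with a neighbour, Rmc1 for Npc1 and Apobr for Cln3. Mcoln1, the calcium channel that activates TFEB by way of calcineurin, was scarce, with 11.25, 4.81 and 2.50 CPM against 5.29, 3.33 and 10.3 CPM.

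Of the 9 proton pump genes, 5 had positive and 4 negative log2 fold changes. Their median of 0.09 turned to -0.0096 without Mll5+/- replicate 1 and was 0.33 without WT replicate 3. The V-ATPase has a membrane sector (V0), through which protons pass, and a cytosolic sector (V1), which hydrolyses ATP. In V0, 3 of 4 subunit genes had positive values (median 0.32), and in V1 2 of 4 (median -0.01). Atp6v0b, a proteolipid subunit of the membrane ring, on chromosome 4 from 117741523 to 117744530, had 311.5, 314.5 and 274 CPM under the WT label and 431, 286 and 464.5 CPM under the Mll5+/- label. Replicates 1 and 3 labelled Mll5+/- are above every library labelled WT, and replicate 2 lies among them. The log2 fold change of 0.39 (SE 0.219) had the smallest unadjusted p of the 41 genes in edgeR, 0.107, which became 0.0195 without Mll5+/- replicate 2.

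The other proteolipid gene, Atp6v0c, had 29.4 ± 11.6 against 36.7 ± 5.93 CPM (SD, n = 3 each; log2 fold change 0.32, SE 0.398), a value that was 0.11 without WT replicate 2 and 0.68 without WT replicate 3. GENCODE names 2 processed copies of it, so its counts may be split. Atp6v0a1, the large subunit beside the ring, had 157, 135 and 66.5 CPM against 136, 77.3 and 131 CPM, and Atp6v0d1, the stalk subunit, had 14.05, 5.965 and 22.7 CPM against 29.9, 16.85 and 6.33 CPM. In both, 1 library of each label lies well below the other two. The accessory gene Atp6ap1 was the least regular, with 20.0, 14.8 and 59.0 CPM under the WT label and 41.9, 2.60 and 45.3 CPM under the Mll5+/- label. Its 2.60 CPM in replicate 2 came from 74 counts, where the other 5 libraries had at least 385.

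In the cytosolic sector, Atp6v1b2, the nucleotide-binding B subunit found in the brain, had 14.9, 36.1 and 11.8 CPM under the WT label and 42.1, 41.2 and 25.7 CPM under the Mll5+/- label. The log2 fold change was 0.79 (SE 0.51, unadjusted p = 0.155 in edgeR). Without WT replicate 2, the high library of its group, it was 1.43 (unadjusted p = 0.0229 in edgeR). It was 0.51 without WT replicate 3 and 0.60 without WT replicate 1. Atp6v1a, the catalytic A subunit, was split, at 142.5, 100.3 and 106 CPM against 74.6, 99.7 and 148 CPM. Atp6v1d, a subunit of the central shaft, had 185 ± 34.6 against 198 ± 26.1 CPM (SD, n = 3 each). Atp6v1h, which couples the sectors, had 42.2, 20.2 and 32.55 CPM against 32.9, 34.65 and 16.9 CPM, and shares its span with Rgs20. Summed over the 9 pump genes, the libraries labelled WT had 937, 848 and 761 CPM and those labelled Mll5+/- 1045, 803 and 1041 CPM, which overlap.

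**Figure D4:**
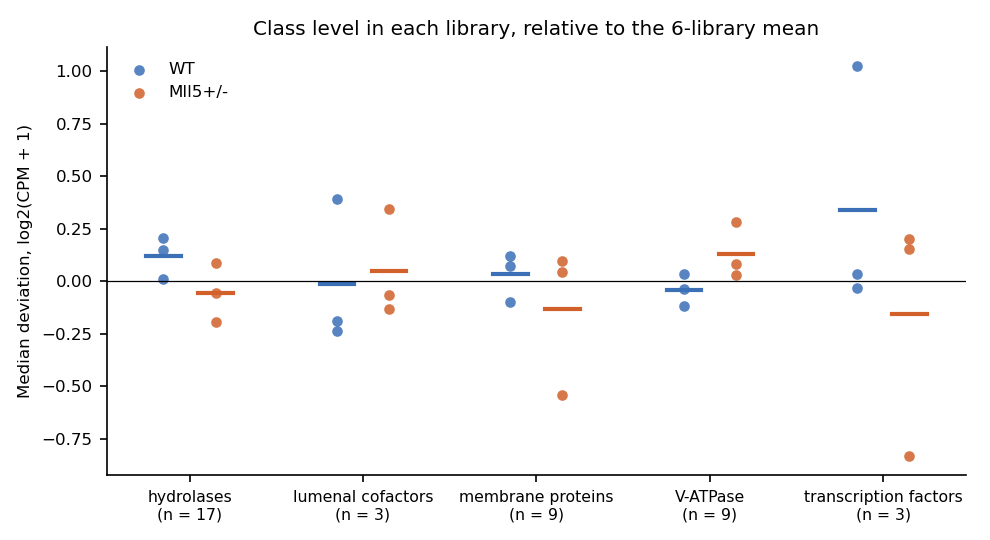
Median level of each role in each library, as the log2(CPM + 1) deviation from the mean of the 6 libraries. Points are libraries and horizontal bars group means; the bars for the hydrolases are at 0.12 (labelled WT) and -0.05 (labelled Mll5+/-) and those for the pump at -0.04 and 0.13, with overlapping points in all 5 roles.

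Set side by side as medians per library, the hydrolases stood at 0.15, 0.21 and 0.01 under the WT label and at 0.08, -0.05 and -0.19 under the Mll5+/- label, relative to the mean of all 6. For the pump the values were 0.03, -0.12 and -0.04 against 0.28, 0.08 and 0.03. The membrane proteins stood at -0.10, 0.07 and 0.12 against 0.04, 0.10 and -0.54, so that Mll5+/- replicate 3 lay apart. Hydrolases thus had the lower and pump genes the higher group mean in the libraries labelled Mll5+/-, and in both roles the points overlap, for the pump only through WT replicate 1 and Mll5+/- replicate 3. No test was made of these medians, since the genes were chosen with earlier results known.

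Of the 3 transcription factors, Tfe3 was the steadiest and Mitf the most divided. Tfe3 had 110.3, 116 and 99.3 CPM under the WT label and 127, 125 and 103 CPM under the Mll5+/- label (log2 fold change 0.13, SE 0.225). Tfeb, often described as the master regulator of lysosome genes, was scarce, with 5.39, 3.66 and 12.6 CPM against 6.71, 2.77 and 6.71 CPM. Mitf, on chromosome 6 from 97784013 to 97998310, had 63.3, 43.9 and 82.7 CPM against 37.8, 3.16 and 36.5 CPM, 63.3 ± 19.4 against 25.8 ± 19.65 CPM (SD, n = 3 each). All 3 libraries labelled Mll5+/- are below those labelled WT, and replicate 2 is far below the other two.

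The log2 fold change of Mitf was -1.29 (SE 0.77, unadjusted p = 0.131 in edgeR), with an interval from -3.06 to 0.48, the largest negative value of the 41. Its unadjusted p was 0.0738 in DESeq2. In limma-voom, which was run with a weight for each library, its unadjusted p was 0.0291 and its log2 fold change -2.04. Adjusted over all tested genes it did not pass in any of the 3 tools (adjusted p 0.9995 in edgeR, 0.9999 in DESeq2, 0.935 in limma-voom). Without Mll5+/- replicate 2 the log2 fold change was -0.78, and over the libraries left out in turn it ran from -1.695 to that value. Genes that hold the E-box were split in direction: of the 12 with CACGTG, 6 had positive and 6 negative log2 fold changes (median -0.03), and of the 25 without, 7 were positive and 18 negative (median -0.10).

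Replicates of the same genotype label lay far apart for some of these genes. Taking the highest over the lowest library of a genotype, with 1 CPM added to each, 6 of the 41 genes (14.6%) exceeded 4-fold, against 32.1% of all tested genes in the same range of mean level. The 6 were Smpd1, Atp6ap1, Mitf, Gla, Arsa and Atp6v0d1, with ratios of 13.6, 12.9, 9.34, 5.67, 5.18 and 4.21. Of the 24 genes of at least 50 CPM, 0 exceeded it, against 9.34% of tested genes at that level, and the largest ratio among the 24 was 2.34. Of the 17 genes under 50 CPM, 6 did (35.3%), against 41.6%. In Mitf and Atp6ap1 the low value belonged to Mll5+/- replicate 2.

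**Figure D5:**
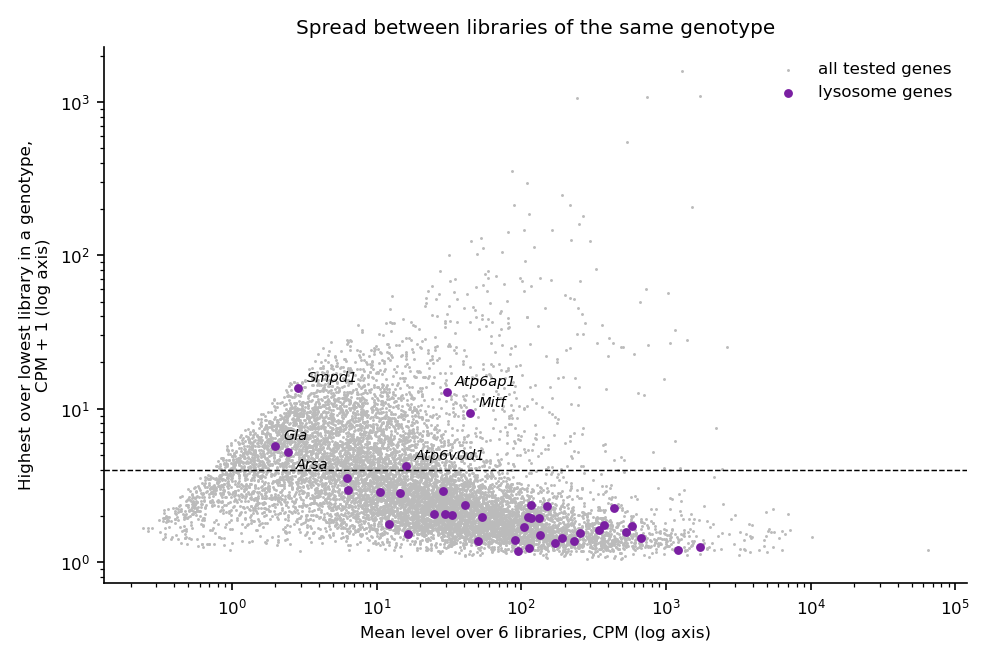
Spread between libraries of the same genotype label against mean level, both on log axes. Grey points are all 10832 tested genes, purple points the 41 lysosome genes, and the vertical axis is the larger of the highest-over-lowest ratios (CPM + 1) in either genotype; the 6 named genes lie above the dashed line at 4.

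Levels can be compared between genes only per length, so CPM was divided by the longest coding transcript of each gene in the GENCODE M21 annotation. On that scale, in CPM per kilobase over the 6 libraries, Laptm5 (664) and Lgmn (607) led, with overlapping ranges of 587 to 735 and 537 to 641. Atp6v0b followed with 347, and then Psap (221), Tpp1 (190.4), Cd68 (188), Ppt1 (183), Grn (159) and Lamp2 (146.5), neighbours whose ranges overlap. Within the pump, Atp6v0b stood far above Atp6v1d (52.3), Atp6v0a1 (29.2), Atp6v0c (28.0) and Atp6v1a (26.4), and Atp6v1b2 (10.1) and Atp6v0d1 (9.80) were lowest. The place of Atp6v0c is uncertain, since its counts may be split with its processed copies. The regulators were ordered Tfe3 (33.4), Mitf (9.13) and Tfeb (2.70), with ranges of 29.3 to 37.4, 0.647 to 16.9 and 1.18 to 5.39, of which the last pair overlap. Gla (0.624), Arsa (0.695) and Smpd1 (1.19) closed the order.

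The rest of the lysosome pathway was read from a list of 65 other genes, of which 59 were tested. In edgeR's test, 38 had positive and 21 negative log2 fold changes (median 0.11 against 0.02 over all tested genes). Of the 59, 0 passed the adjusted threshold and 1 had an unadjusted p under 0.05, against 2.88% of all tested genes. That gene was Laptm4a, a small membrane protein related to Laptm5. It had 252, 226 and 386 CPM under the WT label and 435, 406 and 425 CPM under the Mll5+/- label. Its log2 fold change was 0.55 (SE 0.228, unadjusted p = 0.0393 and adjusted p = 0.9995 in edgeR). The groups do not overlap. Libraries did not overlap for 6 genes that were higher and 1, Atp6ap2, that was lower under the Mll5+/- label, against 4.68% and 4.64% of all tested genes. By group, positive values were found in 11 of 17 hydrolases and cofactors (median 0.06), 10 of 15 membrane proteins (0.13), 3 of 6 sorting genes (-0.04) and 9 of 13 nutrient-sensing genes (0.12). Of the other 8 tested pump genes, 5 had positive values (median 0.35). The most abundant, Tcirg1, the a3 subunit typical of osteoclasts and macrophages, had 278, 276 and 149 CPM against 314, 279.8 and 404 CPM. Its groups were apart, but 2 libraries labelled WT came within a few CPM of Mll5+/- replicate 2. Among the remaining groups, Cd164 had 483 ± 150 against 355 ± 80.4 CPM, and Fnip1 of the nutrient-sensing machinery had 462 ± 57.6 against 419.5 ± 30.2 CPM. Nagpa of the mannose 6-phosphate tag had 64.35 ± 23.3 against 95.5 ± 6.46 CPM (SD, n = 3 each, labelled WT given first). The libraries overlapped for Cd164 and Fnip1 but not for Nagpa (unadjusted p = 0.127, 0.444 and 0.116 in edgeR, in that order).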

How the data were processed

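For the 6 libraries the authors deposited raw gene-level counts, with symbols and coordinates in 1 table; the build named in the submitters' processing notes is mm39. Per the labels' protocols, TRIzol-extracted RNA was amplified by SMART-seq before library preparation. FastQC, STAR, StringTie and DESeq2 are named per the submitters' processing notes, without versions or roles; neither the counting step nor its strandedness is given in the sources used here, so overlapping and near-identical genes may share counts. Genes were kept with filterByExpr (minimum count 10, minimum total 15), which left 10832 of 11881. The main test was edgeR 4.0.16 (quasi-likelihood, robust, TMM; R 4.3.3), Benjamini-Hochberg adjusted over all tested genes with a threshold of 0.05; SEs and 95% intervals come from its coefficient and F statistic, and all p-values are two-sided. In edgeR they set the difference between the labels against the variation among these libraries, with dispersions moderated over all tested genes. Alternatives were DESeq2 1.42.0, limma-voom 3.58.1 with sample weights, other scalings and filters, and leaving out each library. The script was tested on simulated data. Its pass criteria applied only at dispersions far below those of these libraries, so they give no measure of sensitivity here.

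All 41 members were eligible to be named; other genes were the most abundant of each list and those with an unadjusted p under 0.05, apart from items that are not reported here. The members, lists and motifs were chosen with earlier results of these data known. Promoter windows are RefSeq's on GRCm38 and were used for letters only. Amplified reads carry no molecular identifiers, so limits on a count of 0 cover counting error only.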

Additional observations from a re-analysis of the deposited data

How the results depend on the processing

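In edgeR's test on all 6 libraries 0 genes passed, and 0 of the 41 lysosome genes passed in any of the alternatives. DESeq2 called 18 genes of all tested, and leaving out 1 library gave from 0 to 2. The count of lysosome genes with an unadjusted p under 0.05 was 1 in limma-voom (Mitf) and from 0 to 2 over the left-out libraries: Atp6v1b2 without WT replicate 2, Gla and Atp6v0b without Mll5+/- replicate 2 and Gusb without Mll5+/- replicate 3. Of all tested genes, 4.31% were under it in limma-voom, and 2.77%, 4.47% and 3.5% without those libraries, in that order. Lysosome genes without overlap numbered from 4 to 10 with a library left out, a count that rises because fewer libraries have to be apart. The share of all tested genes was not computed for these fits. Of the other lysosome genes, 0 in DESeq2, 3 in limma-voom and 2 with total counts without TMM had an unadjusted p under 0.05, and from 0 to 2 with a library left out. The shares of all tested genes were 3.88%, 4.31% and 2.95%, and from 2.77% to 4.47% with a library left out. Genes over 4-fold within a genotype, for which the alternatives were chosen after seeing the data, numbered 3 with a mean of at least 5 CPM required, where 38 of the 41 were tested, and from 3 to 6 with a library left out, 3 of them without Mll5+/- replicate 2. The median log2 fold change of the hydrolases was -0.26 without WT replicate 3 and -0.045 without WT replicate 2, the extremes over the left-out libraries, and that of the pump from -0.0096 without Mll5+/- replicate 1 to 0.33 without WT replicate 3. That of the cofactors was -0.17 without Mll5+/- replicate 2 and 0.24 without WT replicate 3, and that of the transcription factors -0.76 without WT replicate 2 and 0.064 without WT replicate 3; the cause was not tested. No paired analysis was possible because the labels give neither a pairing nor a batch.

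Outside the left-out libraries, 5 of 243 log2 fold changes of single genes changed sign: Lamp1 (0.10), Scarb2 (0.12), Mcoln1 (-0.21) and Atp6v1h (0.065) in limma-voom, and Neu1 (0.0017) with total counts. With a library left out, 44 of 246 did, in 23 genes, none of them called. Their ranges were -0.045 to 0.078 for Lgmn, -0.32 to 0.29 for Naglu, -0.40 to 0.34 for Neu1, -0.57 to 0.20 for Manba, -1.825 to 3.09 for Smpd1, -1.56 to 0.54 for Arsa and -0.40 to 0.10 for Ppt1. They were -0.18 to 0.35 for Psap, -0.40 to 0.17 for Lamp1, -0.060 to 0.16 for Cd68, -0.14 to 0.0063 for Laptm5, -0.47 to 0.10 for Npc1, -0.35 to 0.19 for Scarb2, -0.028 to 0.20 for Cln3 and -0.53 to 0.78 for Mcoln1. For the pump and Tfeb they were -0.35 to 0.18 for Atp6v0a1, -0.31 to 0.82 for Atp6v0d1, -0.43 to 0.076 for Atp6v1a, -0.054 to 0.18 for Atp6v1d, -0.42 to 0.082 for Atp6v1h, -0.52 to 0.78 for Atp6ap1 and -0.76 to 0.25 for Tfeb. Gla ran from -8.92 to 0.10, the first being a fitted value that depends on the prior count, since both remaining libraries labelled Mll5+/- were at 0. Genes that kept their sign also moved by over 1.5 times, none of them called: the ranges were -0.40 to -0.16 for Hexa, 0.33 to 0.65 for Glb1, -0.56 to -0.014 for Gusb, -0.40 to -0.052 for Lipa, -0.36 to -0.15 for Man2b1, -0.17 to -0.054 for Arsb, -0.36 to -0.090 for Tpp1, -0.31 to -6.1e-06 for Npc2, -0.59 to -0.047 for Cd63, 0.25 to 0.56 for Atp6v0b and 0.059 to 0.21 for Tfe3.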
